A study of Mus musculus with 4 samples.

Results

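Metallothioneins and zinc transporters set how much free zinc a skin cell holds, and 7 genes of these families were followed in IMQ-treated dorsal skin, the metallothioneins *Mt1*, *Mt2* and *Mt4*, the zinc exporter *Slc30a1* and the zinc importers *Slc39a4*, *Slc39a10* and *Slc39a14*. They were found by gene symbol among the 24346 symbols measured, and each was found in all 4 libraries. The list was chosen by the FPKM values of these same 4 libraries, with the difference between the 7KC-IMQ group and the Cont-IMQ group in view. Their levels and differences are therefore given as a description, with no test. Another 21 genes of the same families were in the files, of which 16 were high enough to be tested.

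Male C57BL/6 mice, 8 weeks old at the start, were fed the NASH diet, a high-fat diet with cholesterol, sucrose and bile salt that induces steatohepatitis, for 3 weeks. The Cont-IMQ group (2 libraries) received this diet alone, and the 7KC-IMQ group (2 libraries) received it with 7-ketocholesterol (7KC), an oxidized form of cholesterol. Both groups then received 5% IMQ cream on the dorsal skin for 1 day. IMQ, imiquimod, activates Toll-like receptor 7 and is used in mice to raise psoriasis-like dermatitis, and the comparison asks how dietary 7KC alters the early response of the skin. No vehicle-treated or normally fed skin enters the comparison, so a difference is one between diets within IMQ-treated skin. Neither the labels nor the methods say whether the RNA of a library came from a single mouse or was pooled, so the spread between libraries, and every p-value based on it, may be partly technical.

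Metallothioneins are small proteins whose many cysteines bind zinc and copper. The transcription factor MTF-1 senses free zinc and binds the metal response element, a short sequence found in the promoters of *Mt1*, *Mt2* and *Slc30a1*. Besides zinc, glucocorticoids and IL-6 acting through STAT3 are classic inducers of *Mt1* and *Mt2*, whereas *Mt4* is known from the differentiating cells of stratified squamous epithelia such as the epidermis. Zinc transporters form a pair of families that work in opposite directions. ZnT proteins, encoded by Slc30a genes, move zinc out of the cytosol, and ZIP proteins, encoded by Slc39a genes, move it in. Zinc shortage is known for its skin signs, and inherited loss of ZIP4, the intestinal importer encoded by *Slc39a4*, causes acrodermatitis enteropathica.

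The sequence before the RefSeq transcription start is shown for the 4 genes in which it held a match to the core of the metal response element. Each line gives the 250 bases before the RefSeq start (GRCm38.p6, the assembly also called mm10), 5′ to 3′ on the gene's strand, with matches to the core in capitals. *Mt1* is read from chr8:94178839-94179088, *Mt2* from chr8:94172368-94172617, *Mt4* from chr8:94136954-94137203 and *Slc30a1* from chr1:191906531-191906780, all on the plus strand.
*Mt1*: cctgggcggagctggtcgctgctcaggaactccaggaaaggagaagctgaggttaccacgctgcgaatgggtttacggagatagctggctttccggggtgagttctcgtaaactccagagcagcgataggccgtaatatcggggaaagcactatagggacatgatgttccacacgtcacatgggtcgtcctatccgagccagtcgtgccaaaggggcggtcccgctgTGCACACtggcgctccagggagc
*Mt2*: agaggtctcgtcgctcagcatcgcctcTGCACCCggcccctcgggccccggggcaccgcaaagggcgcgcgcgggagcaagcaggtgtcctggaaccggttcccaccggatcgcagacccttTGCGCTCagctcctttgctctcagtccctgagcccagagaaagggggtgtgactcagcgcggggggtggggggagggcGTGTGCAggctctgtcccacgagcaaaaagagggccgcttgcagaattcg
*Mt4*: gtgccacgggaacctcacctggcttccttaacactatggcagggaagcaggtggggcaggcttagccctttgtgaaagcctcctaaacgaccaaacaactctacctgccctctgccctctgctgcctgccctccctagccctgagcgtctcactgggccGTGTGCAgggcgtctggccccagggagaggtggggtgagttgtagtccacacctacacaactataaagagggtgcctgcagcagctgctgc
*Slc30a1*: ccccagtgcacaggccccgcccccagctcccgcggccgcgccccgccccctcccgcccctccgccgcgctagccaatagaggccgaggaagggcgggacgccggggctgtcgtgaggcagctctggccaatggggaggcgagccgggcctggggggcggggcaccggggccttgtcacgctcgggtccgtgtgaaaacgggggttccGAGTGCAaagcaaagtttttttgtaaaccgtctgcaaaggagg

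The core was searched as TGCACNC or TGCGCNC, on both strands, in windows of 300 bases that add the first 50 bases after the start. *Mt2* had 4 matches, beginning at -223, -128 and -50 before the start and at 5 after it. *Mt1* had 3, from -23 to -17, from 3 to 9 and from 21 to 27. *Slc30a1* had 2, from -43 to -37 and from 31 to 37, and *Mt4* had 1, from -91 to -85. *Mt3*, which is not among the 7 genes, had 1 after the start, from 28 to 34. Of all 32851 windows of the same length, 25.7% held at least 1 match, 7.11% at least 2, 1.97% at least 3 and 0.517% at least 4. Thus *Mt1* and *Mt2* lay in the rare tail of the windows, whereas a single match as in *Mt4* was common. The core of the antioxidant response element, TGACNNNGC, occurred in *Mt2* from -79 to -71 and in *Slc30a1* from -82 to -74, and in 12.4% of all windows. Neither match overlapped a metal response element core. *Slc39a10*, which had a window at each of 2 starts, held no metal response element core in either, and its upstream start held a STAT palindrome, TTCNNNGAA, from -82 to -74, as did 8.3% of all windows somewhere. A window was found for 5 of the 7 genes. A window covers only the bases around its RefSeq start, so elements farther from that start were not searched. The absence of a match, as for the antioxidant response element in *Mt1*, therefore holds for the window alone. A match describes letters only, and no binding was measured. The start used in skin was not determined, so a match placed after the RefSeq start may lie before the start used.

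**Figure D1:**
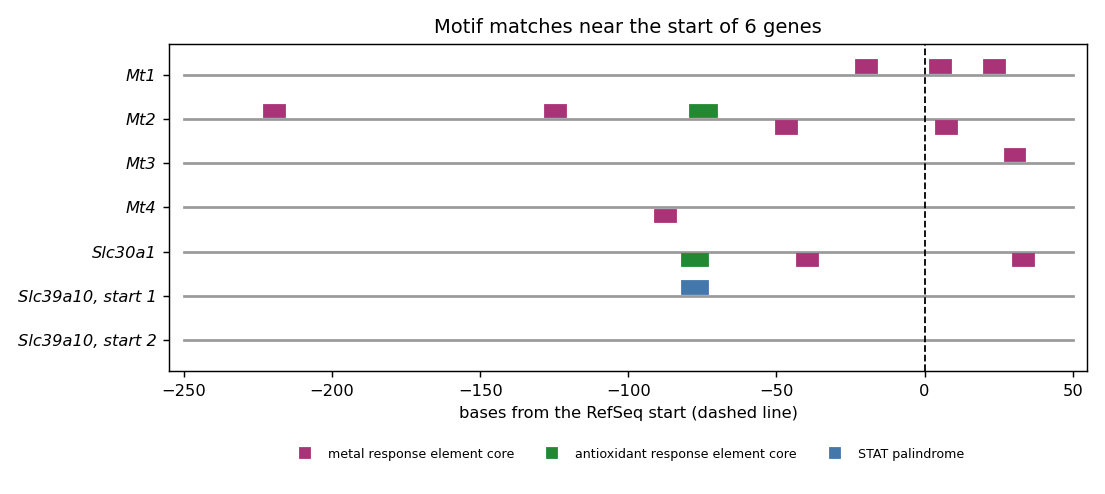
Positions of motif matches in bases from the RefSeq start (dashed line), from 250 bases before to 50 bases after it, for *Mt1*, *Mt2*, *Mt3*, *Mt4*, *Slc30a1* and the 2 starts of *Slc39a10*. Boxes above a line are matches on the gene's strand and boxes below it on the other strand. *Mt2* carries 4 metal response element cores, *Mt1* 3, *Slc30a1* 2, *Mt3* and *Mt4* 1 each, and *Slc39a10* none.

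Levels are the deposited FPKM, that is, sequenced fragments per kilobase of transcript, scaled to the number mapped in the library. Paired values are replicates 1 and 2 in that order, "without 7KC" stands for the Cont-IMQ group and "with 7KC" for the 7KC-IMQ group, and where values are set against each other the Cont-IMQ group comes first. Differences are the mean log2(FPKM + 1) of the 7KC-IMQ group minus that of the Cont-IMQ group, a scale that understates differences of genes with low levels. The depth was estimated from the steps between low values as 14970000 to 16200000 reads per library. It was the depth that put the largest share of the low genes used within 0.1 read of a whole number. That share was 72.4% to 78.6%, against 20% by chance at a depth fixed beforehand, so the search itself raised it. Keratinocyte markers fitted the tissue label, with *Krt10* at 4597 to 8444 FPKM and *Krt14* at 4132 to 5700 FPKM, and the skeletal muscle gene *Acta1* at 2106 to 3133 FPKM shows that deeper tissue was included. The 2 Cont-IMQ libraries stood apart in hair follicle genes, with the 7KC-IMQ libraries between them. All 18 genes of that marker list were lowest in Cont-IMQ replicate 1 and highest in Cont-IMQ replicate 2. Summed levels in these libraries were 146 and 1834 FPKM, against 525 and 469 FPKM in the 7KC-IMQ libraries. Over 15896 genes whose average over the libraries reached 0.1 FPKM, limma called 1 gene (0.00629%) at an adjusted p-value of 0.05, the microRNA gene *Mir24-2*, and the next lowest adjusted p-value was 0.233. *Mir24-2* was lower with 7KC (difference -9.11), but its reads were not estimated, so little can be read from it. As the tissue was measured in bulk, fewer cells of a type and less RNA per cell cannot be told apart for any gene below.

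In the 7KC-IMQ group, *Mt1*, *Mt2* and *Slc39a14* were higher and *Mt4* and *Slc30a1* lower than in the Cont-IMQ group without overlap between the libraries, whereas *Slc39a4* and *Slc39a10* overlapped. Over all genes tested, 23.9% were higher and 22.9% lower in this way, and since the same contrast was known when the list was made, nothing is read from the 3 higher and 2 lower members. The sizes were unequal. By the ratio of mean FPKM, *Mt4* differed by 3.73-fold, *Slc39a14* by 1.94-fold, *Mt1* and *Mt2* by 1.53-fold and 1.54-fold, and *Slc30a1* by only 1.14-fold. This ratio is not the log2 difference defined above, and for *Mt4* it is raised by the higher Cont-IMQ library.

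**Figure D2:**
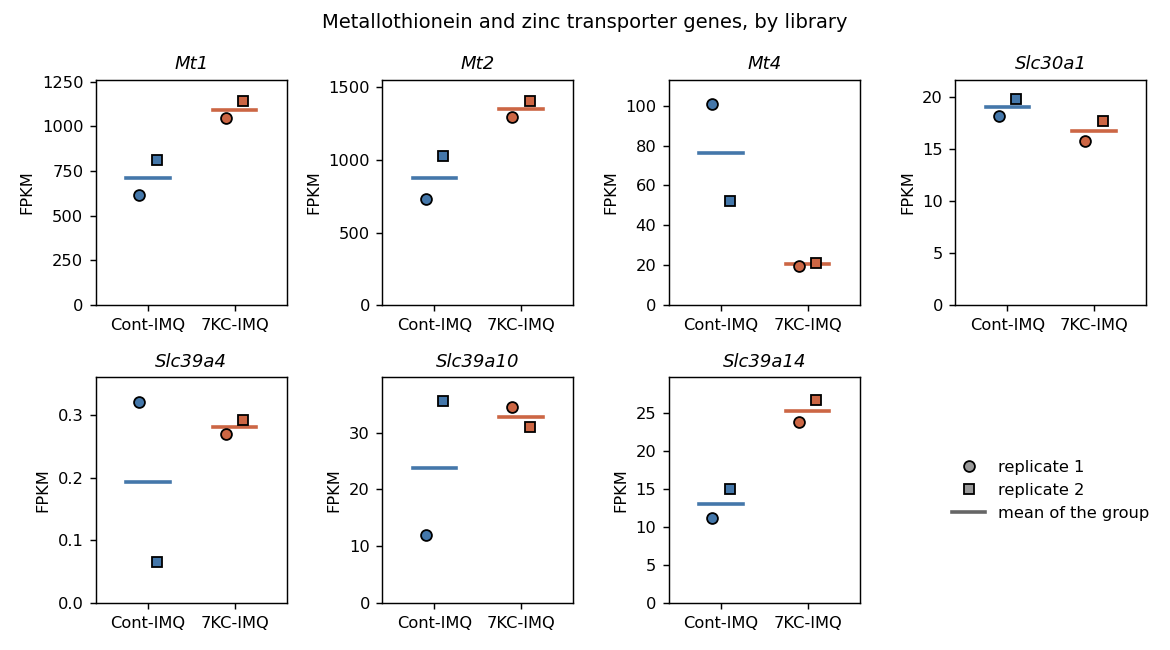
FPKM of the 7 genes in each library, with circles for replicate 1, squares for replicate 2 and a line for the mean of the group (n = 2), on linear axes from 0 that differ between genes. *Mt1*, *Mt2* and *Slc39a14* lie higher and *Mt4* and *Slc30a1* lower in both 7KC-IMQ libraries, and the Cont-IMQ libraries of *Slc39a10* span 12.0 to 35.6 FPKM.

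*Mt1* and *Mt2* encode the metallothioneins that most tissues make, each of 61 residues. *Mt1* (ENSMUSG00000031765.8, chr8:94179082-94180327, 3 exons) had 615 FPKM (replicate 1) and 811 FPKM (replicate 2) on the NASH diet alone, and 1044 and 1141 FPKM, in the same order, on the diet with 7KC. The higher Cont-IMQ library stayed below the lower 7KC-IMQ library, and the Cont-IMQ libraries differed more from each other than the 7KC-IMQ libraries did. The means were 712.8 ± 138.6 FPKM and 1092 ± 68.9 FPKM (SD, n = 2), a difference of 0.63 on the log2 scale with an SD within groups of 0.21. *Mt2* (ENSMUSG00000031762.7, chr8:94172664-94173568, 3 exons) had 731 and 1026 FPKM without 7KC and 1297 and 1403 FPKM with 7KC. Its means were 878.5 ± 209 FPKM and 1350 ± 74.9 FPKM (SD, n = 2), a difference of 0.64 with an SD within groups of 0.25. These values rest on an estimated 3257 to 5961 reads for *Mt1* and 3450 to 6534 reads for *Mt2*. Both genes ranked among the most abundant of the skin, at places 131 and 103 of all symbols by mean FPKM.

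The libraries kept the same order in both genes, with Cont-IMQ replicate 1 lowest and 7KC-IMQ replicate 2 highest. Accordingly, the ratio of *Mt2* to *Mt1* was close to constant: 1.19 and 1.27 without 7KC and 1.24 and 1.23 with 7KC. Their summed level was 1346 and 1837 FPKM without 7KC and 2341 and 2544 FPKM with 7KC. Without Cont-IMQ replicate 1 the differences were 0.43 for *Mt1* and 0.39 for *Mt2*. An antisense gene, *Gm45774*, shares 30.25% of the 75-base stretches of *Mt2*, and as the counting of strands is not given in the sources used here, reads of both cannot be told apart. *Mt1* shared no such stretch with another gene.

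*Mt4* encodes the metallothionein of stratified squamous epithelium, of 62 residues, and ran against *Mt1* and *Mt2*. The gene (ENSMUSG00000031757.7, chr8:94137197-94139031, 3 exons) had 101 FPKM (replicate 1) and 52.1 FPKM (replicate 2) on the NASH diet alone, and 19.8 and 21.2 FPKM, in the same order, on the diet with 7KC. The 7KC-IMQ libraries were nearly equal, and both lay far below the lower of the Cont-IMQ libraries, which themselves differed widely. The means were 76.4 ± 34.3 FPKM and 20.5 ± 0.931 FPKM (SD, n = 2), a difference of -1.77 on the log2 scale with an SD within groups of 0.47. Estimated reads were 302 and 156 in the Cont-IMQ group and 64 and 63 in the 7KC-IMQ group. Leaving out each library in turn gave differences from -2.24 to -1.31, the smallest without Cont-IMQ replicate 1.

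The share of *Mt4* in the summed FPKM of the 4 metallothioneins was 6.95% and 2.76% without 7KC and 0.84% and 0.824% with 7KC. *Mt1* and *Mt2* together stood at 13.4 and 35.3 times the level of *Mt4* in the Cont-IMQ group, and at 118 and 120.3 times in the 7KC-IMQ group. Epidermal differentiation genes were, by their sum, also highest in Cont-IMQ replicate 1. Their summed level over the 15 genes found of 16 listed was 28420 and 19720 FPKM without 7KC and 21140 and 22610 FPKM with 7KC, and no gene of the list was at 0 in all libraries. Relative to that sum, *Mt4* stood at 3.54 and 2.64 per 1000 without 7KC, and at 0.938 and 0.935 per 1000 with 7KC. The most abundant genes of the list overlapped between the groups, as *Krtdap* with 6915 and 5822 against 5912 and 6400 FPKM, and *Krt10* with 8444 and 4597 against 5283 and 5553 FPKM. Of the 15 genes, 3 were lower without overlap (*Flg2*, *Ivl* and *Krt77*) and 1 was higher (*Tgm1*), named after their values were seen, beside 22.9% and 23.9% of all genes. All 4 differed with an unadjusted limma p-value under 0.05, and none passed after adjustment (adjusted p = 0.352 to 0.365). The part of the epidermal layers sampled in the difference of *Mt4* was not tested.

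The 4 metallothionein genes lie in a row on the plus strand of chromosome 8, in the order *Mt4*, *Mt3*, *Mt2* and *Mt1*, within 43131 bases. *Mt2* and *Mt1*, which kept a near constant ratio, are 5513 bases apart, and *Mt4* is separated from *Mt3* by 13575 bases. *Mt3*, the metallothionein known from the brain, stood at 0.599 and 2.02 FPKM without 7KC and 1.12 and 2.43 FPKM with 7KC, from an estimated 3 to 12 reads. The groups overlapped, and *Mt3* did not pass the test (difference 0.30, standard error 0.39, adjusted p = 0.784 in limma). Outside the cluster, *Bbs2* next to *Mt4*, a gene of the primary cilium, had 2.91 and 3.15 against 2.98 and 2.81 FPKM (adjusted p = 0.878 in limma). *Nup93* next to *Mt1*, a gene of the nuclear pore, had 17.0 and 15.8 against 18.8 and 17.8 FPKM (difference 0.15, adjusted p = 0.508 in limma).

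*Slc39a14* encodes ZIP14, an importer of zinc that also carries iron and manganese and that IL-6 is known to induce in the liver. The gene (ENSMUSG00000022094.15, chr14:70303469-70351425, minus strand, 489 residues) had 11.1 FPKM (replicate 1) and 14.9 FPKM (replicate 2) on the NASH diet alone, and 23.8 and 26.7 FPKM, in the same order, on the diet with 7KC. The groups were separated by a gap wider than the distance between replicates in either group. The means were 13.0 ± 2.70 FPKM and 25.3 ± 2.03 FPKM (SD, n = 2), a difference of 0.92 with an SD within groups of 0.21, which rests on an estimated 797 and 1067 reads without 7KC and 1824 and 1888 reads with it. Its share of the summed FPKM of all ZIP genes was 4.44% and 5.13% in the Cont-IMQ group, and 7.58% and 8.41% in the 7KC-IMQ group. With each library left out, the difference remained between 0.72 and 1.11.

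*Slc39a10* encodes ZIP10, an importer of the cell membrane known from the outer root sheath of the hair follicle and from the epidermis. The gene (ENSMUSG00000025986.6, chr1:46807544-46892852, minus strand, 833 residues) had 12.0 FPKM (replicate 1) and 35.6 FPKM (replicate 2) on the NASH diet alone, and 34.5 and 31.0 FPKM, in the same order, on the diet with 7KC. Cont-IMQ replicate 1 alone was low, and the other Cont-IMQ library was the highest of the 4. The means of 23.8 ± 16.7 FPKM and 32.7 ± 2.47 FPKM (SD, n = 2) gave a difference of 0.63, less than the SD within groups of 0.75. Without Cont-IMQ replicate 1, the difference was -0.12, and without Cont-IMQ replicate 2 it was 1.38, so a single library decided both its size and its sign. Estimated reads were 962 in the low library and 2457 to 2959 in the others. The low library is the one in which all 18 hair follicle markers were lowest, among them *Krt71* with 34.5 FPKM, against 503 FPKM in Cont-IMQ replicate 2 and 135 and 112 FPKM in the 7KC-IMQ libraries. None of these 18 genes was at 0 in all libraries, and their part in the level of *Slc39a10* was not tested.

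*Slc30a1* encodes ZnT1, which exports zinc across the cell membrane and is, like *Mt1* and *Mt2*, a known target of MTF-1. The gene (ENSMUSG00000037434.7, chr1:191906767-191913247, plus strand, 503 residues) had 18.2 FPKM (replicate 1) and 19.8 FPKM (replicate 2) on the NASH diet alone, and 15.7 and 17.7 FPKM, in the same order, on the diet with 7KC. Although the groups did not overlap, the gap between them was smaller than the distance between replicates in either group. The means were 19.0 ± 1.16 FPKM and 16.7 ± 1.42 FPKM (SD, n = 2), a difference of -0.18 with an SD within groups of 0.10, close to the median SD of 0.11 over all genes tested. The difference was -0.09 without 7KC-IMQ replicate 1, -0.12 without Cont-IMQ replicate 2 and -0.26 without 7KC-IMQ replicate 2. Its direction was opposite to that of *Mt1* and *Mt2*, and the part of MTF-1 in the levels of these genes was not tested. Of its 75-base stretches, 7.54% are shared with the antisense gene *1700034H15Rik*.

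*Slc39a4*, the importer lost in acrodermatitis enteropathica, was near the limit of detection in skin. The gene (ENSMUSG00000063354.7, chr15:76612383-76617384, minus strand) had 0.321 and 0.0649 FPKM without 7KC and 0.270 and 0.293 FPKM with 7KC. These are an estimated 12, 3, 11 and 11 reads, the second of them at the 3 reads taken as the floor. The groups overlapped, with a difference of 0.11 and an SD within groups of 0.16, and no difference was detectable at this depth. Estimated reads cover counting error only.

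Ordered by level within the Cont-IMQ group, *Mt2* came before *Mt1*, followed at a distance by *Mt4* and then by *Slc39a10*, *Slc30a1* and *Slc39a14*. *Mt2* lay above *Mt1* in each library, although their ranges over the libraries of the group overlapped. *Slc39a10* was not separated from the other transporters in this order, as its libraries at 12.0 and 35.6 FPKM spanned both of *Slc30a1* and the higher of *Slc39a14*. In the 7KC-IMQ group, *Mt4* stood lower in the order, below *Slc39a10* and *Slc39a14*, with 20.5 FPKM against 32.7 and 25.3 FPKM, and above *Slc30a1* with 16.7 FPKM. Its place relative to *Slc30a1* depends on how length is counted. FPKM from Cufflinks divides by an effective length that is much shorter than the full length in short transcripts, and with full transcript length (398 bases for *Mt4*) the levels were 10.2 for *Mt4* and 16.1 for *Slc30a1*. *Slc39a4* was last in both groups.

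Genes of like pattern were sought among the 13110 genes that averaged 1 FPKM or more, by the root mean square distance between log2(FPKM + 1) values centred over the 4 libraries. Any such list over 4 libraries is short of information, and the distances are a description. Nearest to *Mt1* was *Ccl7*, a monocyte-attracting chemokine, at a distance of 0.026, with 95.1 and 120 FPKM without 7KC and 161 and 174 FPKM with 7KC. *Tgfa*, a ligand of the EGF receptor, followed with 19.2 and 25.2 against 30.7 and 33.3 FPKM, and the neutrophil chemokine receptor *Cxcr1*, *Clec4d* and *Mmp19* completed the 5. *Clec4d*, a lectin receptor of myeloid cells, and *Ccl7* were also the nearest to *Mt2*, at 0.049 and 0.055, ahead of *Gm11974*, *Rtn4rl2* and *Chst11*. *Clec4d* was listed again for *Slc39a14*, at 0.10, with 1.33 and 2.27 against 3.45 and 3.74 FPKM.

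The nearest to *Slc39a14* was *Eepd1*, with 5.49 and 6.88 FPKM without 7KC and 12.4 and 12.6 FPKM with 7KC, then *Slc29a2*, a nucleoside transporter, *Bcl3*, an IκB family protein induced by inflammatory signals, and *Acot5*. Among the genes nearest to *Slc39a10* were *Shh*, a signaling ligand of the growing hair follicle, with 1.21 and 4.71 against 3.37 and 3.34 FPKM, and *Gli1*, a transcription factor, with 4.84 and 11.2 against 11.1 and 9.60 FPKM. Both were lowest in Cont-IMQ replicate 1, by more than the other libraries differed among themselves. *Gm12505*, the nearest at 0.12, and *S100a7a* were also among them.

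*Mt4* had no close neighbour. Its nearest gene, the protease inhibitor *Serpina3b* with 36.7 and 20.2 against 11.2 and 9.39 FPKM, stood at a distance of 0.25, and *Hoxa10*, *Snora31*, *Fbp2* and *Hoxc10* at 0.37 to 0.40. Homeobox genes such as *Hoxa10* and *Hoxc10* differ with position along the trunk. *Hoxa10* had 3.33 and 2.22 against 0.806 and 0.471 FPKM, and *Hoxc10* 4.22 and 4.04 against 0.996 and 0.309 FPKM. The part of the site of sampling in the difference of *Mt4* was not tested. *Slc30a1*, with its small spread, had near neighbours throughout, the first being *Nt5dc3* at 0.0083, followed by *Taf7*, *Zfp715*, *Itch* and *4833419F23Rik*.

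**Figure D3:**
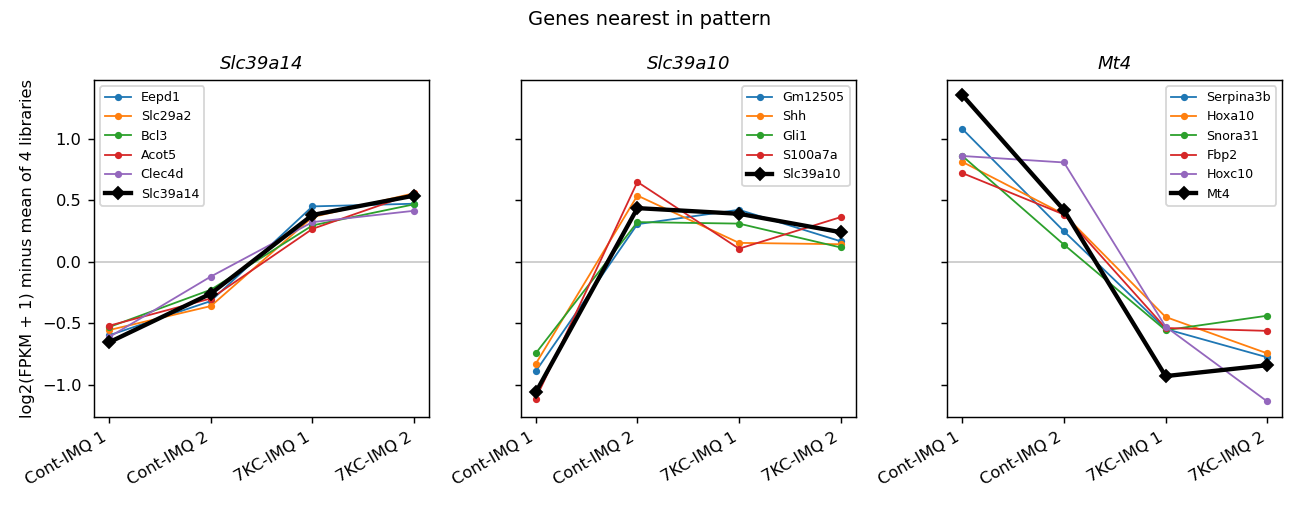
log2(FPKM + 1) minus its mean over the 4 libraries for *Slc39a14*, *Slc39a10* and *Mt4* (black diamonds) and genes nearest to each in pattern (coloured points). Lines only join the libraries of a gene. The curves of *Slc39a10* and its neighbours are low in Cont-IMQ replicate 1 alone, whereas those of *Slc39a14* and *Mt4* part by group, and *Mt4* lies outside its neighbours in Cont-IMQ replicate 1 and 7KC-IMQ replicate 1.

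The other genes of the 3 families gave no call. Of these 21 genes, 16 averaged 0.1 FPKM or more and were tested, and limma called none of them after adjustment (adjusted p from 0.356 to 0.939). At an unadjusted p-value under 0.05, 2 were higher (*Slc39a1* and *Slc39a11*) and none lower, against 7.5% higher and 5.47% lower over all genes tested. Without overlap, 6 were higher (37.5%) and 1, *Slc39a9*, was lower (6.25%), beside the 23.9% and 22.9% of all genes given above. Their median difference was 0.08, with a range from -0.14 to 0.34, beside a median of -0.0056 over all genes tested. The count depends on scaling. With every library brought to the same sum of FPKM, 4 were higher and 4 lower without overlap.

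Among the importers, *Slc39a1*, which encodes the widely used ZIP1, was the most abundant, with 61.8 and 58.0 FPKM without 7KC and 73.4 and 72.3 FPKM with 7KC. This difference of 0.28 (standard error 0.07) did not pass after adjustment (adjusted p = 0.356 in limma). *Slc39a11* had 14.1 and 12.2 against 15.9 and 18.1 FPKM, a difference of 0.34 (standard error 0.11, adjusted p = 0.365 in limma). *Slc39a7*, whose product ZIP7 releases zinc from the endoplasmic reticulum, had 55.1 and 50.8 against 60.3 and 60.2 FPKM (difference 0.18, adjusted p = 0.411 in limma). *Slc39a2*, linked to keratinocyte differentiation, had 8.44 and 8.93 against 9.55 and 9.52 FPKM, and *Slc39a6* had 30.8 and 33.4 against 34.0 and 39.3 FPKM. Neither passed the test (adjusted p = 0.606 and 0.515 in limma).

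*Slc39a8*, which encodes ZIP8 and is the closest relative of *Slc39a14*, overlapped between the groups. It had 22.1 and 41.7 FPKM without 7KC and 28.2 and 26.9 FPKM with 7KC, a difference of -0.14 (standard error 0.30, adjusted p = 0.877 in limma). As with *Slc39a10*, Cont-IMQ replicate 1 was the lowest and replicate 2 the highest of its libraries. *Slc39a3*, *Slc39a9* and *Slc39a13* had differences of -0.07, -0.02 and -0.07. *Slc39a5* was listed at 0 in all libraries, and *Slc39a12* stood at 0 to 0.0981 FPKM, below the filter.

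Among the exporters, no gene but *Slc30a1* was lower without overlap. *Slc30a4*, *Slc30a5* and *Slc30a9* were as abundant as *Slc30a1*, at 17.5 to 21.5 FPKM, and their differences were 0.04, -0.03 and -0.05 (adjusted p = 0.831 to 0.921 in limma). *Slc30a6* and *Slc30a7*, which with *Slc30a5* load zinc into the secretory pathway, had differences of 0.24 and 0.14 (adjusted p = 0.474 and 0.638 in limma), the first from 6.66 and 5.48 against 7.40 and 7.29 FPKM. *Slc30a2* stood at 0.459 to 0.695 FPKM. *Slc30a8*, known from pancreatic beta cells, and *Slc30a10*, a manganese exporter, were listed at 0 in all libraries, and *Slc30a3* stood at 0.0362 to 0.135 FPKM, below the filter. The share of *Slc30a1* in the summed FPKM of ZnT genes was 20.6% and 22.4% in the Cont-IMQ group, and 18.6% and 19.5% in the 7KC-IMQ group.

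**Figure D4:**
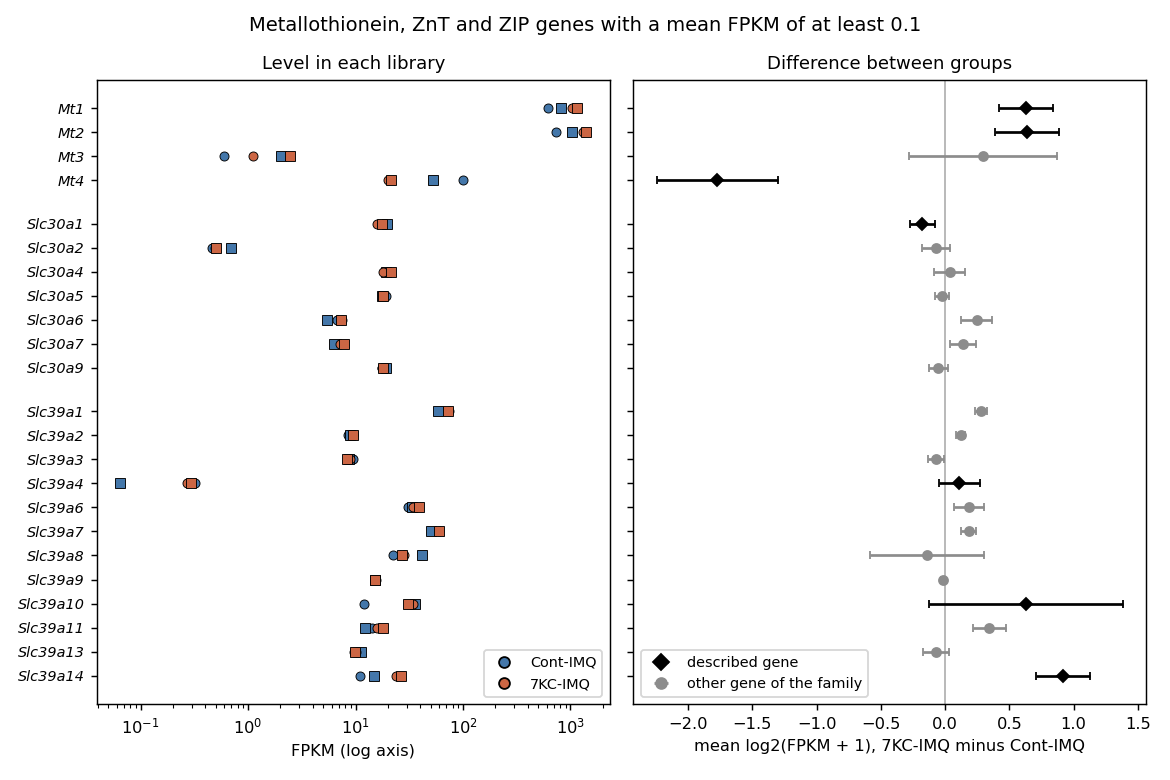
Left, FPKM of each metallothionein, ZnT and ZIP gene that averaged 0.1 FPKM or more, in the 4 libraries, on a log axis, with circles for replicate 1 and squares for replicate 2. Right, the difference in mean log2(FPKM + 1), 7KC-IMQ minus Cont-IMQ, with bars of 1 SD within groups (n = 2). *Mt4* at -1.77 and *Slc39a14* at 0.92 lie farthest from 0, and the grey genes, which are the other family members, lie between -0.14 and 0.34.

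The sensor of zinc itself gave no call. *Mtf1*, which encodes MTF-1, had 5.35 and 4.97 FPKM without 7KC and 4.76 and 5.64 FPKM with 7KC (difference 0.01, standard error 0.12, adjusted p = 0.99 in limma). *Trpm7*, a channel that also admits zinc, had 14.1 and 12.5 against 12.1 and 12.3 FPKM (adjusted p = 0.67 in limma). *Gpr39*, a receptor for extracellular zinc, and *Tmem163* were below the filter. The 11 copper genes tested gave no call and no unadjusted limma p-value under 0.05, with a median difference of -0.01. Without overlap, 3 were higher (*Sco1*, *Sco2* and *Commd1*) and 1 lower (*Ccs*, named after its value was seen), beside 23.9% and 22.9% of all genes, and *Sco2*, a copper chaperone of cytochrome oxidase, differed most, with 23.4 and 20.9 against 24.8 and 27.4 FPKM (difference 0.23, adjusted p = 0.426 in limma).

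Iron is handled by some of the same carriers as zinc. Of 14 iron genes tested, 3 were higher and 2 lower with an unadjusted limma p-value under 0.05, beside 7.5% and 5.47% of all genes, and none passed after adjustment, with a median difference of -0.05. *Lcn2*, a siderophore-binding protein of neutrophils and inflamed epithelium, had 125 and 110.0 FPKM without 7KC and 273 and 372 FPKM with 7KC (difference 1.43, standard error 0.17, adjusted p = 0.331 in limma). *Fth1*, the ferritin heavy chain, had 1405 and 1520 against 1968 and 2136 FPKM (difference 0.49, adjusted p = 0.356 in limma), and *Steap4*, a metalloreductase, 30.5 and 26.6 against 38.4 and 41.8 FPKM (difference 0.48, adjusted p = 0.352 in limma). *Slc40a1*, which encodes the iron exporter ferroportin, was lower, with 12.8 and 16.2 against 8.05 and 7.04 FPKM (difference -0.85, adjusted p = 0.352 in limma). The other lower gene, *Hamp*, named after its values were seen, was at 0.36 and 0.363 FPKM without 7KC and was listed at 0 with 7KC. Its average of 0.18 FPKM was little above the filter of 0.1 FPKM, and its reads were not estimated, so little can be read from it.

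Genes that answer to the known inducers of *Mt1* and *Mt2* were counted in the same fit. Of 16 genes of the IL-6 and STAT3 list, 4 were higher and 2 lower with an unadjusted limma p-value under 0.05, beside 7.5% and 5.47% of all genes. Without overlap, 7 were higher and 3 lower, beside 23.9% and 22.9% of all genes, with a median difference of 0.28. The 4 higher genes were *Il6*, *Bcl3*, *Stat3* and *Osmr* and the 2 lower ones *Il6ra* and *Lbp*, and no gene of the list passed after adjustment. *Il6st*, *Socs3*, *Junb*, *Pim1* and *Saa3* overlapped between the groups, with differences of 0.06, 0.03, -0.04, 0.0015 and 0.15. These genes and *Stat3*, *Osmr*, *Il6ra* and *Lbp* are named after their values were seen. *Il6* had 1.78 and 2.54 FPKM without 7KC and 5.40 and 12.5 FPKM with 7KC (difference 1.56, adjusted p = 0.356 in limma), and *Bcl3* 33.3 and 41.4 against 59.9 and 67.6 FPKM (difference 0.76, adjusted p = 0.352 in limma). The acute phase gene *Saa1* had 18.3 and 12.1 against 21.1 and 74.97 FPKM, and its difference rested mostly on 7KC-IMQ replicate 2. *Saa2* overlapped between the groups (adjusted p = 0.548 in limma). The part of IL-6 in the levels of the metallothioneins was not tested.

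Of 14 glucocorticoid response genes tested, 1 was higher, *Lcn2*, which is also in the iron list, and 3 were lower with an unadjusted limma p-value under 0.05, beside 7.5% and 5.47% of all genes. Without overlap the numbers were the same, beside 23.9% and 22.9% of all genes, and the median difference was -0.10. The phosphatase gene *Dusp1* had 273 and 279 FPKM without 7KC and 124 and 218 FPKM with 7KC (difference -0.74, adjusted p = 0.379 in limma), and the kinase gene *Sgk1* 62.7 and 78.0 against 49.0 and 55.3 FPKM (difference -0.42, adjusted p = 0.365 in limma). *Fkbp5*, a chaperone of the receptor, overlapped, with 27.4 and 53.8 against 46.2 and 53.4 FPKM. The other lower gene was *Tsc22d3*, named after its values were seen. None passed after adjustment.

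Calprotectin, the complex of S100A8 and S100A9, binds zinc outside the cell, and its genes showed the largest differences of the pathway lists. *S100a8* had 1267 and 1037 FPKM without 7KC and 3608 and 6775 FPKM with 7KC (difference 2.11, standard error 0.33, adjusted p = 0.352 in limma). *S100a9* had 1293 and 1063 against 3586 and 7010 FPKM. Of the 4 genes on the list, these 2 were higher and *S100b* was lower with an unadjusted limma p-value under 0.05, beside 7.5% and 5.47% of all genes, and none passed after adjustment. *S100a8* and *S100a9* are made by neutrophils and by inflamed keratinocytes. The neutrophil marker list, of which 11 genes were found, summed to 2581 and 2126 FPKM without 7KC and 7225 and 13820 FPKM with 7KC, of which these 2 genes made up nearly everything. Of its 10 genes tested, 7 were higher and 1 was lower without overlap, beside 23.9% and 22.9% of all genes. *Cxcr2*, the neutrophil chemokine receptor, had 13.4 and 15.0 against 20.2 and 23.0 FPKM. The granule genes *Camp*, *Ngp*, *Elane* and *Mpo* stood below 1 FPKM in every library, though *Camp* was higher without overlap. *Mmp9* stood above 1 FPKM in every library, *Retnlg* in all but Cont-IMQ replicate 1, and *Mmp8* in the 7KC-IMQ libraries only. Without overlap, *Mmp8* and *Retnlg* were higher and *Mmp9* lower. These genes, *Cxcr2* apart, are named after their values were seen. No gene of the list was at 0 in all libraries, and the part of neutrophils in the higher levels of *Mt1*, *Mt2* and *Slc39a14* was not tested.

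The remaining tissue markers gave no single direction beside the metallothioneins. Summed levels overlapped between the groups for basal keratinocyte, skeletal muscle, adipocyte, fibroblast and red blood cell genes. The macrophage and monocyte list was lower without overlap, at 365 and 405 FPKM without 7KC and at 330 and 325 FPKM with it. T cell genes also summed lower without overlap, to 18.0 and 16.7 against 14.9 and 12.1 FPKM. Sebaceous gland genes summed higher without overlap, to 1481 and 1283 against 1662 and 1676 FPKM. By gene, 7 of 10 sebaceous gland genes were higher and 2 lower without overlap. Of 8 macrophage and monocyte genes 0 were higher and 3 lower, and of 5 T cell genes 1 was higher and 2 lower. Over all genes these shares were 23.9% and 22.9%. No gene of these lists passed after adjustment in limma.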

How the data were processed

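RNA sequencing of IMQ-treated dorsal skin was analysed in 4 libraries, 2 of the Cont-IMQ group and 2 of the 7KC-IMQ group, grouped by their labels. The authors made stranded mRNA libraries, mapped 75-base single-end reads to mm10 and deposited FPKM values per gene symbol. The submitters' processing notes name TopHat2 2.1.1, Bowtie2 2.2.8, SAMtools 0.1.18 and Cuffdiff 2.2.1, while the gene annotation and the counting of strands are not given in the sources used here.

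FPKM are not counts, so log2(FPKM + 1) was compared by limma 3.58.1 (trend on the mean) in R 4.3.3 over the 15896 genes averaging 0.1 FPKM or more, with Benjamini-Hochberg adjustment at 0.05. With 2 libraries against 2, a two-sided exact permutation test cannot go below p = 0.333, so none was run. The members and gene lists were chosen with earlier results of these data known, so members received no test and no list was adjusted alone. Named genes were the members, other family genes, up to 4 genes of each pathway list with the largest difference, up to 3 of the highest of each marker list, the 5 nearest in pattern to each member and the neighbours of the cluster, and others are said to be named after their values were seen. 1 gene under this rule is not reported here. Lists covered zinc sensing, copper, iron, glucocorticoid response, IL-6 and STAT3, zinc-binding S100 proteins and 11 cell types.

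Depth was estimated from low values of genes with 1 transcript, with an assumed fragment length of 200 bases, and 3 reads were the floor. Coordinates came from GENCODE M21 (GRCm38), in which 23318 symbols were found, and promoters from RefSeq (GRCm38.p6). Alternatives were a filter at 1 FPKM on average, no filter, 0.1 as pseudocount, other scalings (median ratio, same sum, quantile), no trend, a replicate block and each library left out.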

Additional observations from a re-analysis of the deposited data

How the results depend on the processing

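The 1 gene past the adjusted p-value in limma became 2 with a pseudocount of 0.1, and leaving out 1 library at a time gave 1 to 11, with 11 without Cont-IMQ replicate 1 and 5 without Cont-IMQ replicate 2. Of the 16 other family genes tested, 7 did not overlap between the groups, and with 1 library left out the count was 8 to 14, as fewer libraries overlap less often. None of the 16 was called in any of these fits. With the same sum of FPKM in each library, the median difference of all genes moved to -0.07, and the higher share of genes without overlap was 31.83% instead of 51.12%. *Mt1*, *Mt2*, *Mt4*, *Slc30a1* and *Slc39a14* kept their direction in all 12 alternatives, from which nothing is read. Because their groups did not overlap, only the other scalings could have reversed it, and leaving out a library could not. *Slc39a10* turned to -0.12 without Cont-IMQ replicate 1. *Slc39a4* ranged from -0.04 with 1 library left out to 0.53 with a pseudocount of 0.1, and had no value at a mean FPKM of at least 1. The replicate block also called 1 gene, with 1754 genes at an unadjusted p-value under 0.05 instead of 2061. Nothing in the labels pairs same-numbered libraries, and their deviations from the group means correlated at 0.07 across 15896 genes, which are not independent. Low genes such as *Slc39a4* and *Mt3* are limited by an estimated 12 reads or fewer.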
